A study of Homo sapiens with 6 samples.

Results

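The 41 genes examined here encode the proteins that license, unwind and copy DNA in S phase, with the enzymes that supply nucleotides and the factors that rebuild chromatin behind the fork. They were listed by name for their function, by a rule that used no measured value. Earlier results of these data were known when the list was made. All 41 were found by symbol among the 26899 genes of the counts table, and all 41 passed the low-count filter of edgeR and belonged to the 15299 genes tested. The lowest read count of any of them in a library was 429, for MCM10, and the highest was 18660, for MCM7. The data came from HK-2 cells, a human kidney cell line of proximal tubule origin that was transformed with human papillomavirus 16. Polyadenylated RNA was sequenced from directional libraries, 3 labelled shCtrl, although their titles call the cells wild type, and 3 labelled shANXA2 and titled as ANXA2 knockdown. Plasmids were delivered by lipid transfection, and the labels do not say whether the 3 libraries of a group came from separate cultures, so the p-values measure only the spread between these libraries, which may be technical.

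Library depth ranged from 24231267 to 34561675 counted reads. The ANXA2 transcript, the target of the knockdown, was at 1658, 1461 and 1675 CPM (read counts scaled to the size of each library) in the libraries labelled shCtrl and at 1538, 1561 and 1519 CPM in those labelled shANXA2. Its log2 fold change was -0.05 (standard error, SE, 0.075, adjusted p 0.848). No decrease of ANXA2 RNA was detected, the 95% interval running from -14.3% to 8.29%, so the target RNA went against the knockdown label and the differences given here are between libraries carrying these labels. Of 7 epithelial markers 6 reached a mean of 1 CPM, CDH1 being the exception, and the proximal tubule markers PAX8, GGT1 and MME reached it too. The transporter and brush border genes LRP2, CUBN, AQP1 and ANPEP stayed at or below 0.416 CPM in each library, and summed CPM did not exceed 0.394 for endothelial markers (3 of 5 in the table) and 3.9 for leukocyte markers (3 of 6 in the table). Fibroblast markers summed to between 29.5 and 38 CPM, mostly LUM.

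DNA replication is prepared in G1, when the origin recognition complex (ORC) with CDC6 and CDT1 loads rings of MCM2 to MCM7 onto DNA. In S phase CDC45 and the GINS complex join each ring to form the active CMG helicase, the primase and polymerases alpha, delta and epsilon synthesise DNA, and PCNA, loaded by replication factor C (RFC), tethers the polymerases to their template. Genes of this machinery are classical targets of E2F transcription factors, which are restrained by the RB protein. The E7 protein of human papillomavirus 16 inactivates RB, so cells transformed by it are known for high E2F target expression. In a bulk sample, a smaller share of cells in S phase and less RNA per cell cannot be told apart.

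The promoters of the genes were examined for a feature that the choice by name had not used. RefSeq promoter windows (GRCh38.p14, 250 bases before to 50 bases after the gene start) were matched for 37 of the 41 genes, all but GINS4, MCM4, MCM5 and RPA2. The E2F motif was searched on both strands as TTTCCCGC, TTTGGCGC, TTTCGCGC or TTTGCCGC. It was present in 20 of 37 windows (54.1%), against 3.3% of the 27305 promoter windows of all genes. In a list of other replication genes, described below, it was present in 5 of 32 windows (15.6%). In the licensing and helicase class it was present in 10 of 14 windows, among polymerase and clamp genes in 6 of 13, in chromatin assembly and fork control in 3 of 6, and in nucleotide supply in 1 of 4 (TYMS). Of 26 matches in all, 18 began within 60 bases of the gene start.

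A motif known from mitotic promoters was counted in the same windows. The cell cycle homology region (CHR), searched as TTTGAA or TTTAAA on both strands, was present in 3 of the 37 windows (8.1%), namely those of RRM1, RRM2 and TK1, against 24.3% of all windows. In a comparison list of mitosis genes it was present in 18 of 20 windows, where the E2F motif was present in 2. CCAAT, the motif of NF-Y, was present in 59.5% of the windows of the replication genes and in 35.7% of all windows. It was present in 85% of the mitosis windows and in 53.1% of those of the other replication genes. Median GC content was 65% in the windows of the replication genes, 58.3% in all windows and 58% in the mitosis windows. The part of base composition in these shares was not tested. A match is a description of these letters and does not show that a factor binds.

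The windows of MCM6, MCM2, MCM3 and MCM7, subunits of the same helicase ring, held the most E2F matches and are shown for that reason. Each is printed in the direction of transcription and ends 30 bases after the gene start, with the E2F matches in capitals. They lie at chr2:135876414-135876693 (minus strand), chr3:127598161-127598440 (plus strand), chr6:52284713-52284992 (minus strand) and chr7:100101368-100101647 (minus strand). In MCM6 and MCM2 a match on one strand overlaps a match on the other, so that the 4 matches of MCM6 lie at 2 places and the 2 matches of MCM2 at 1 place.
MCM6: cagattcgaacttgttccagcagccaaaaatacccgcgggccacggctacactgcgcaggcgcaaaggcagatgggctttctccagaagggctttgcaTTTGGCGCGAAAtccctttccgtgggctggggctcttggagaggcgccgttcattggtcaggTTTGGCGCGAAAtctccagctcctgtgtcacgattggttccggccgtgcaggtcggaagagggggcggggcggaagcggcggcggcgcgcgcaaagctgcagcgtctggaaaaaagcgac
MCM2: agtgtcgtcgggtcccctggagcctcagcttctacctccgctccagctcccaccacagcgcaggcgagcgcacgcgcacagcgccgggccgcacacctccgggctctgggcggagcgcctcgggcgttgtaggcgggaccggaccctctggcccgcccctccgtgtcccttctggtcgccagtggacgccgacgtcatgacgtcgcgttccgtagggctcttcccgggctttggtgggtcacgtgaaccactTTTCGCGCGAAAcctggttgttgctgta
MCM3: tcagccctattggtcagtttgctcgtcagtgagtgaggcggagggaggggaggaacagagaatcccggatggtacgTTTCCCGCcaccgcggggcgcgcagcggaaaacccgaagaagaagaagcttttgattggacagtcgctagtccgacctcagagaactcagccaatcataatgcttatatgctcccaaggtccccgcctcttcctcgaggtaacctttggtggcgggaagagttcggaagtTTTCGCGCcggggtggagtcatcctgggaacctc
MCM7: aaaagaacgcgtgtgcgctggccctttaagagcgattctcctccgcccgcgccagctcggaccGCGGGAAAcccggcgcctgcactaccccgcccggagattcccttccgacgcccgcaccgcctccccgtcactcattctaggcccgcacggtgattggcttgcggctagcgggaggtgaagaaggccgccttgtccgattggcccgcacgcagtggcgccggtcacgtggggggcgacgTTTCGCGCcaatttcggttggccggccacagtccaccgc

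In order to compare the groups, all 15299 genes were fitted together. By the quasi-likelihood test of edgeR none of the 41 replication genes passed an adjusted p of 0.05, and neither did any other gene (0% called), although 1251 genes had an unadjusted p under 0.05. The smallest adjusted p among the 41 was 0.599. DESeq2 called 32 genes, and 165 passed in edgeR without the low-count filter, but 0 of the 41 were among them. At an unadjusted p under 0.05, 5 of the 41 were lower in the libraries labelled shANXA2 (RRM2, RRM1, CDC6, PRIM2 and FEN1), against a background of 4.32% of all tested genes, and 1 was higher (MCM2), against 3.86%. The count of 6 became 0 without shANXA2 replicate 1, 2 without shCtrl replicate 2 and 3 without shANXA2 replicate 2. Over all tested genes, the 1251 became 505, 739 and 926 in these omissions. Without shCtrl replicate 1, shCtrl replicate 3 or shANXA2 replicate 3 the count was again 6, with 1947, 1404 and 1296 over all tested genes.

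Most estimates were small and negative. The log2 fold change was below 0 for 32 of the 41 genes (78%), against 51% of all tested genes, and the median was -0.085 against -0.006 over all tested genes. Estimates ran from -0.39 (POLA1) to 0.20 (MCM2), and 18 of the 41 lay within 0.1 of 0. The count of 32 spanned 26 (without shANXA2 replicate 2) to 34 (without shCtrl replicate 2) when 1 library was left out and was 36 with library-size scaling, where the median of all tested genes was -0.03. The median of the 41 reached -0.159 without shANXA2 replicate 3.

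The 3 values of one group all lay below the 3 of the other for 8 of the 41 genes in the direction of lower shANXA2 (RRM1, RRM2, CDC6, PRIM2, FEN1, DTL, GINS3 and GINS4), against 7.7% of all tested genes. In the other direction this held for 2 of the 41 (MCM2 and MCM7), against 7.94%. Without shCtrl replicate 3 the 8 became 13 and without shANXA2 replicate 3 they became 19. Fewer libraries make separation easier, so the 7.7% is no background for these counts. The share of all tested genes was not counted for these omissions. The libraries of a group did not move as a block. The library labelled shCtrl 2 held the highest value of 17 of the 41 genes and shANXA2 2 the lowest value of 16, whereas shANXA2 3 held the highest value of 11. The summed CPM of the 41 genes was 4950, 5005 and 4843 in the libraries labelled shCtrl and 4716, 4651 and 4953 in those labelled shANXA2, so the sums overlapped.

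**Figure D1:**
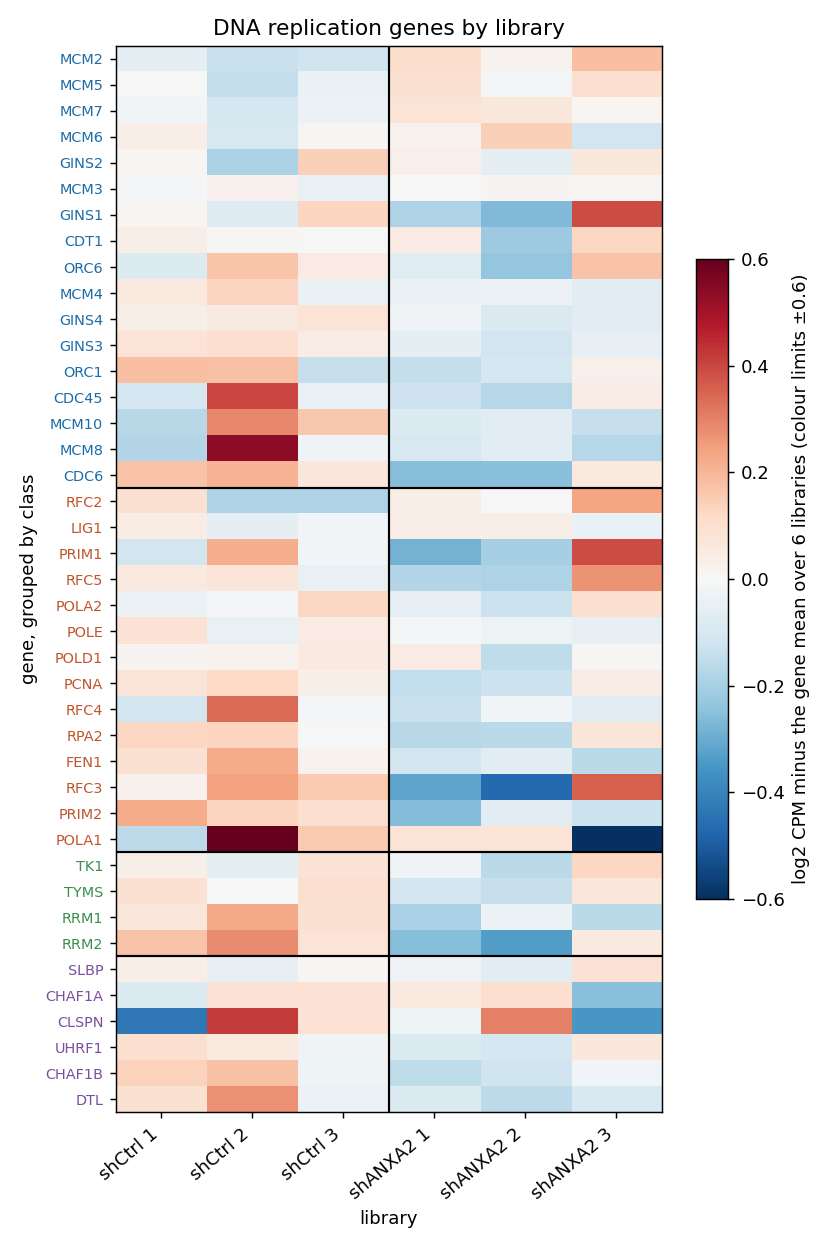
Heat map of the 41 replication genes (rows, grouped by class) in the 6 libraries (columns), coloured by log2 CPM minus the mean of the gene over the libraries. Rows of RRM1, RRM2, PRIM2 and FEN1 are above their mean (red) in the 3 libraries labelled shCtrl, MCM2 and MCM7 are above it in the 3 labelled shANXA2, and several genes of the shANXA2 3 library differ from the other 2 of its group.

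To examine the helicase, the 17 genes of origin licensing and the CMG complex were summarised as a class. Their median log2 fold change was -0.085, with 11 lower and 6 higher estimates, and the class held members on both sides of 0. The median was -0.023 without shCtrl replicate 2 and -0.025 without shANXA2 replicate 2.

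Gene positions are those of GENCODE release 44 on GRCh38. The core ring subunits MCM2 to MCM7, which must assemble in equal numbers, had 5 of 6 estimates above 0 and a median of 0.073. With library-size scaling and with an offset for transcript GC content MCM3 was slightly below 0, which left 4 of 6 above, and MCM6 did not stay above 0 without shANXA2 replicate 2 or without shCtrl replicate 2. Per length, their levels over the 6 libraries were 134 FPKM (fragments scaled to transcript length and library size) for MCM7, 98.3 for MCM2, 90.4 for MCM4, 70.2 for MCM3, 64.9 for MCM5 and 41 for MCM6. The levels of MCM2 and MCM4 were close in the libraries labelled shCtrl, at 91.8 ± 2.06 and 94 ± 6.09 FPKM (SD, n = 3), and apart in those labelled shANXA2, at 104.8 ± 6.49 and 86.9 ± 0.545 FPKM (SD, n = 3).

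MCM2 (ENSG00000073111.13, chromosome 3, 127598410 to 127622436, plus strand), a subunit that also binds histones, had 363, 342 and 347 CPM in the libraries labelled shCtrl and 405, 381 and 426 CPM in those labelled shANXA2. All 3 values labelled shANXA2 were above the 3 labelled shCtrl. Its log2 fold change was 0.20 (SE 0.0821, adjusted p 0.605). MCM2 overlaps an antisense lncRNA (ENSG00000285600) over 23.6% of its exonic bases.

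MCM7 (ENSG00000166508.17, chromosome 7, 100092233 to 100101940, minus strand), a subunit whose gene hosts a cluster of microRNAs, had 510, 480 and 503 CPM in the libraries labelled shCtrl and 547, 541 and 521 CPM in those labelled shANXA2. The groups did not overlap, with a log2 fold change of 0.11 (SE 0.0749, adjusted p 0.694). MCM5 was also higher on average, at 253 ± 9.92 against 233 ± 11.4 CPM (SD, n = 3), with overlapping groups. MCM4 was the single subunit of the ring with a negative estimate (-0.10), at 390.5 ± 5.06 CPM against 418 ± 24.4 CPM (SD, n = 3). On this scale the MCM4 values of the groups overlapped, and the estimate was -0.06 without shCtrl replicate 2.

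MCM3 and MCM6 differed little, at 240.3 ± 1.43 against 237.4 ± 5.66 CPM and at 164.5 ± 14.8 against 160.3 ± 7.9 CPM (SD, n = 3).

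As a share of the summed FPKM of the 6 ring subunits, MCM2 took 19%, 18.6% and 18.8% in the libraries labelled shCtrl and 20.5%, 19.5% and 21.8% in those labelled shANXA2. MCM4 took 18.9%, 20.5% and 18.3% against 17%, 17.3% and 16.9%. MCM3 took 14.1%, 14.9% and 14.2% against 13.6%, 14% and 13.8%. The groups did not overlap for these 3 shares, with MCM2 taking the larger and MCM3 and MCM4 the smaller share in the libraries labelled shANXA2. Shares of 1 sum depend on each other, so a larger share of MCM2 lowers the rest. In CPM the MCM3 values of the groups overlapped, with means of 240.3 in the libraries labelled shANXA2 and 237.4 in those labelled shCtrl. How often shares of other gene sets separate was not counted. The shares of MCM5, MCM6 and MCM7 overlapped between the groups, and no share was tested.

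Among the loading factors, ORC1, ORC6, CDC6 and CDT1 had negative estimates, from -0.29 to -0.02. CDC6 (ENSG00000094804.9, chromosome 17, 40287879 to 40304657, plus strand), the ATPase that recruits the MCM ring to origins, had 73.7, 75.7 and 68.6 CPM in the libraries labelled shCtrl and 54.8, 55 and 68.1 CPM in those labelled shANXA2. The groups touched without overlapping, since shANXA2 3 lay just below shCtrl 3. The log2 fold change was -0.29 (SE 0.116, adjusted p 0.605), and it ranged from -0.40 without shANXA2 replicate 3 to -0.24 without shANXA2 replicate 1. CDT1, its partner in loading, was at 74.3 ± 8.93 CPM against 75.4 ± 1.08 CPM (SD, n = 3), with an interval of the difference from -17.1% to 17.1%. ORC1, the largest subunit of the origin recognition complex, was at 44.1 ± 2.84 against 49 ± 6.01 CPM and ORC6 at 45.6 ± 6.44 against 48.3 ± 4.16 CPM (SD, n = 3), and both overlapped between the groups. Without shANXA2 replicate 2, only 2 of the 4 loading factor estimates were below 0.

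The GINS complex, which bridges CDC45 and the ring, had estimates from -0.15 to 0.02 for its 4 subunits. GINS3 had 37.3, 37.8 and 36.4 CPM in the libraries labelled shCtrl and 33.9, 32.6 and 34.1 CPM in those labelled shANXA2. GINS4 had 37.2, 37.7 and 38.3 CPM against 35.8, 34.2 and 34.6 CPM. Both were separated between the groups with small steps, at log2 fold changes of -0.15 and -0.12 and edgeR adjusted p of 0.686 and 0.745. Antisense lncRNAs overlap 10.9% of the exonic bases of GINS3 and 21% of those of GINS4. GINS1 and GINS2 overlapped between the groups.

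MCM8, a relative of the ring subunits that acts in homologous recombination, had 24.3, 39.9 and 27 CPM in the libraries labelled shCtrl and 25.7, 26.3 and 24.4 CPM in those labelled shANXA2. A second gene model (ENSG00000286235) shares 33.3% of its exonic bases on the same strand, so reads may be split between them. The single library shCtrl 2 stood above the other 5, and the log2 fold change of -0.26 became -0.0085 without it. CDC45 and MCM10, which helps to activate the helicase, were likewise highest in shCtrl 2, at 56.5 and 24.1 CPM, and their groups overlapped.

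**Figure D2:**
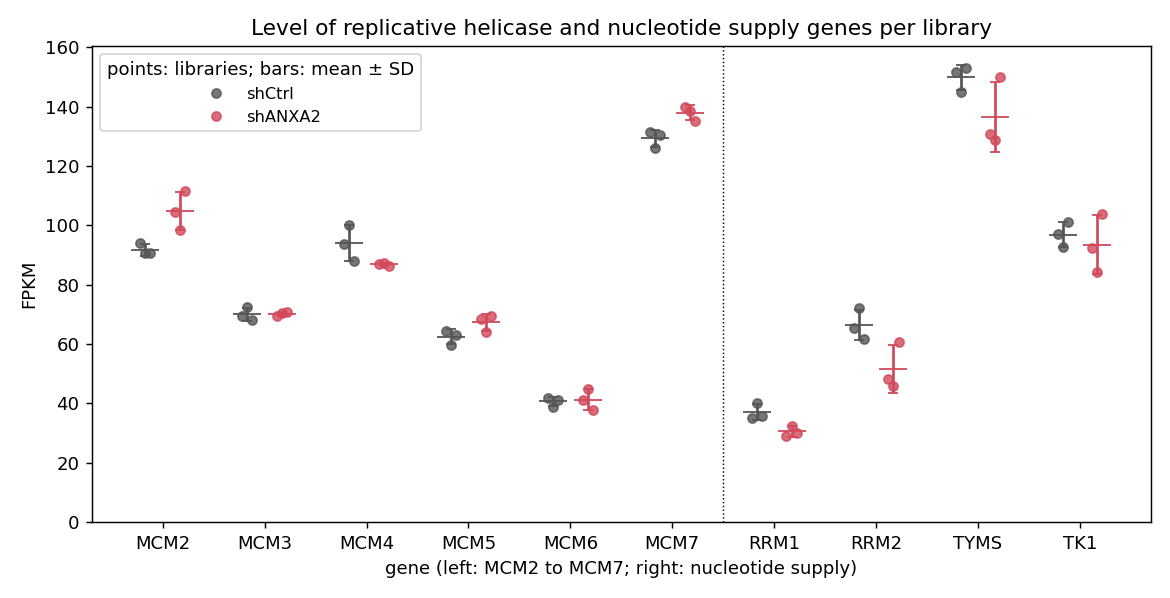
FPKM of the 6 MCM ring subunits and 4 nucleotide supply genes, with 1 point per library and bars for the mean ± SD of 3 libraries labelled shCtrl (grey) or shANXA2 (red). MCM2 and MCM7 lie higher and RRM1 and RRM2 lower in the libraries labelled shANXA2, while TYMS, TK1, MCM3 and MCM6 overlap.

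The polymerase, primase and clamp class held 14 genes with 12 negative and 2 positive estimates, and its median was -0.108 (-0.179 without shANXA2 replicate 3). The 6 polymerase and primase subunits had negative estimates, from -0.39 to -0.04, of which 4 stayed negative without shANXA2 replicate 2 and 5 with the GC offset. PRIM2 (ENSG00000146143.17, chromosome 6, 57314805 to 57646850, plus strand), the large subunit of primase that makes RNA primers, had 48.6, 45.5 and 44.5 CPM in the libraries labelled shCtrl and 34.8, 39.9 and 38 CPM in those labelled shANXA2. The groups did not overlap, and the log2 fold change was -0.30 (SE 0.106, adjusted p 0.599). Its partner PRIM1, the catalytic subunit, had an estimate of -0.04, with its highest value of 36.7 CPM in shANXA2 3, and shares 10.9% of its exonic bases with another gene model on the same strand (POLA2 16.8%).

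POLA1 (ENSG00000101868.10, chromosome X, 24693873 to 24996986, plus strand), the catalytic subunit of polymerase alpha, had the most negative estimate of the 41 genes (-0.39, SE 0.254, adjusted p 0.684) and the largest SE among them. It was at 28.7, 48.9 and 35.7 CPM in the libraries labelled shCtrl and at 33.9, 33.9 and 18.7 CPM in those labelled shANXA2. The groups overlapped, and the estimate spanned -0.55 without shCtrl replicate 1 to -0.16 without shANXA2 replicate 3. POLD1 and POLE, the catalytic subunits of the replicative polymerases delta and epsilon, had estimates of -0.06 each, with intervals of the difference from -18.2% to 12.2% and from -16.6% to 10.2%.

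FEN1 (ENSG00000168496.3, chromosome 11, 61792911 to 61797238, plus strand), the nuclease that trims Okazaki fragments, had 85.4, 93.3 and 81.2 CPM in the libraries labelled shCtrl and 74.2, 76.7 and 71.6 CPM in those labelled shANXA2. Each value labelled shANXA2 was below each value labelled shCtrl, with a log2 fold change of -0.23 (SE 0.0967, adjusted p 0.608). LIG1, the ligase that seals the trimmed fragments, had an estimate of 0.02 and a level of 71 ± 2.23 CPM against 70 ± 2.51 CPM (SD, n = 3).

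PCNA (ENSG00000132646.10, chromosome 20, 5114953 to 5126626, minus strand), the sliding clamp, was the most abundant of the 41 transcripts per length, at 180 FPKM over the 6 libraries. It had 295, 304 and 287 CPM in the libraries labelled shCtrl and 253, 255 and 288 CPM in those labelled shANXA2. Replicates 1 and 2 labelled shANXA2 lay below the control range and replicate 3 lay within it, and the log2 fold change was -0.15 (SE 0.0881, adjusted p 0.647). Of the clamp loader genes, RFC3, RFC4 and RFC5 had negative estimates and RFC2 a positive one (0.18), and none was separated between the groups. RFC2 was at 135 ± 11.9 against 119.1 ± 13.6 CPM and RFC4 at 80.9 ± 3.21 against 90.3 ± 15.3 CPM (SD, n = 3). In RFC5 replicates 1 and 2 labelled shANXA2 lay below all controls, at 65.5 and 65.1 CPM, and shANXA2 3 above them, at 89.1 CPM. The RFC5 estimate of -0.05 was positive without shANXA2 replicate 1 (0.03), without shANXA2 replicate 2 (0.03) and with the GC offset (0.03). The RFC2 estimate spanned 0.11 without shANXA2 replicate 3 to 0.28 without shCtrl replicate 1, that of RFC3 -0.53 without shANXA2 replicate 3 to -0.08 without shANXA2 replicate 2, and that of RFC4 became -0.01 without shCtrl replicate 2. RPA2, of the single-strand binding complex, was at 75.5 ± 7.25 CPM against 84.8 ± 4.15 CPM (SD, n = 3).

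The 4 nucleotide supply genes all had negative estimates (3 of 4 without shANXA2 replicate 2), with a median of -0.19, the lowest of the 4 classes. RRM2 (ENSG00000171848.13, chromosome 2, 10120698 to 10211725, plus strand), the regulatory subunit of ribonucleotide reductase that is made in S phase, had 255, 276 and 240.1 CPM in the libraries labelled shCtrl and 190, 180 and 236 CPM in those labelled shANXA2. Replicates 1 and 2 labelled shANXA2 lay well below the controls and replicate 3 just below shCtrl 3. The log2 fold change was -0.35 (SE 0.118, adjusted p 0.599), and the 95% interval of the difference ran from -34.7% to -5.46%. Without shANXA2 replicate 3 the estimate was -0.47.

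RRM1 (ENSG00000167325.14, chromosome 11, 4094707 to 4138932, plus strand), the catalytic subunit of the same enzyme, had 125.5, 140.2 and 127.4 CPM in the libraries labelled shCtrl and 104.4, 116.9 and 107 CPM in those labelled shANXA2. The groups did not overlap, and the log2 fold change was -0.26 (SE 0.0963, adjusted p 0.605). TYMS, thymidylate synthase, was the most abundant of the class at 143 FPKM and had 268, 251 and 268.5 CPM against 232.5, 228.9 and 263.4 CPM. Its groups overlapped, with a log2 fold change of -0.12 and an adjusted p of 0.718. ENOSF1, on the opposite strand, overlaps 39.9% of the exonic bases of TYMS, and whether counting used the strand was not stated for these files. TK1, the thymidine salvage kinase, had 178, 167 and 184 CPM against 171, 155 and 189 CPM, with an estimate of -0.04. The summed CPM of the 4 genes was 827, 834 and 820.3 in the libraries labelled shCtrl and 698, 681 and 796 in those labelled shANXA2, without overlap. This was not particular to the class. The sums of chromatin assembly and fork control did not overlap either (502.6, 537.4 and 497.5 against 479.1, 481.1 and 484.5 CPM). Those of MCM2 to MCM7 were separated in the other direction (1940, 1878 and 1873 against 2006, 1980 and 1981 CPM). How often sums of other genes separate was not counted.

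Chromatin assembly and fork control held 6 genes with 5 negative estimates and a median of -0.076. DTL (ENSG00000143476.17, chromosome 1, 212035553 to 212107400, plus strand), which marks CDT1 for destruction in S phase, had 108, 122 and 98.7 CPM in the libraries labelled shCtrl and 95.6, 90.6 and 95.1 CPM in those labelled shANXA2. The groups were separated by a small gap, and the log2 fold change was -0.22 (SE 0.105, adjusted p 0.615). Without shCtrl replicate 2 it was -0.14. CHAF1B, of the chromatin assembly factor that places new histones, had 43.8, 45 and 39.1 CPM against 35.8, 36.6 and 39.4 CPM, and only shANXA2 3 reached the control range. Its log2 fold change was -0.19 (SE 0.108, adjusted p 0.639). SLBP, the histone mRNA binding protein and the most abundant gene of the class at 73.7 FPKM, had 160, 151 and 157 CPM against 154, 149 and 166 CPM. Its estimate was 0.00 at 2 decimals and its sign changed with the scaling, with an interval of the difference from -12.9% to 15%. UHRF1, which carries DNA methylation through replication, had an estimate of -0.08, CHAF1A, the partner of CHAF1B, one of -0.05, and CLSPN, an adaptor of the replication checkpoint, one of -0.07, all with overlapping groups. The sign of CLSPN was positive without shCtrl replicate 2 (0.15), without shANXA2 replicate 3 (0.08) and with the GC offset (0.02), and that of CHAF1A without shANXA2 replicate 3 (0.05).

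**Figure D3:**
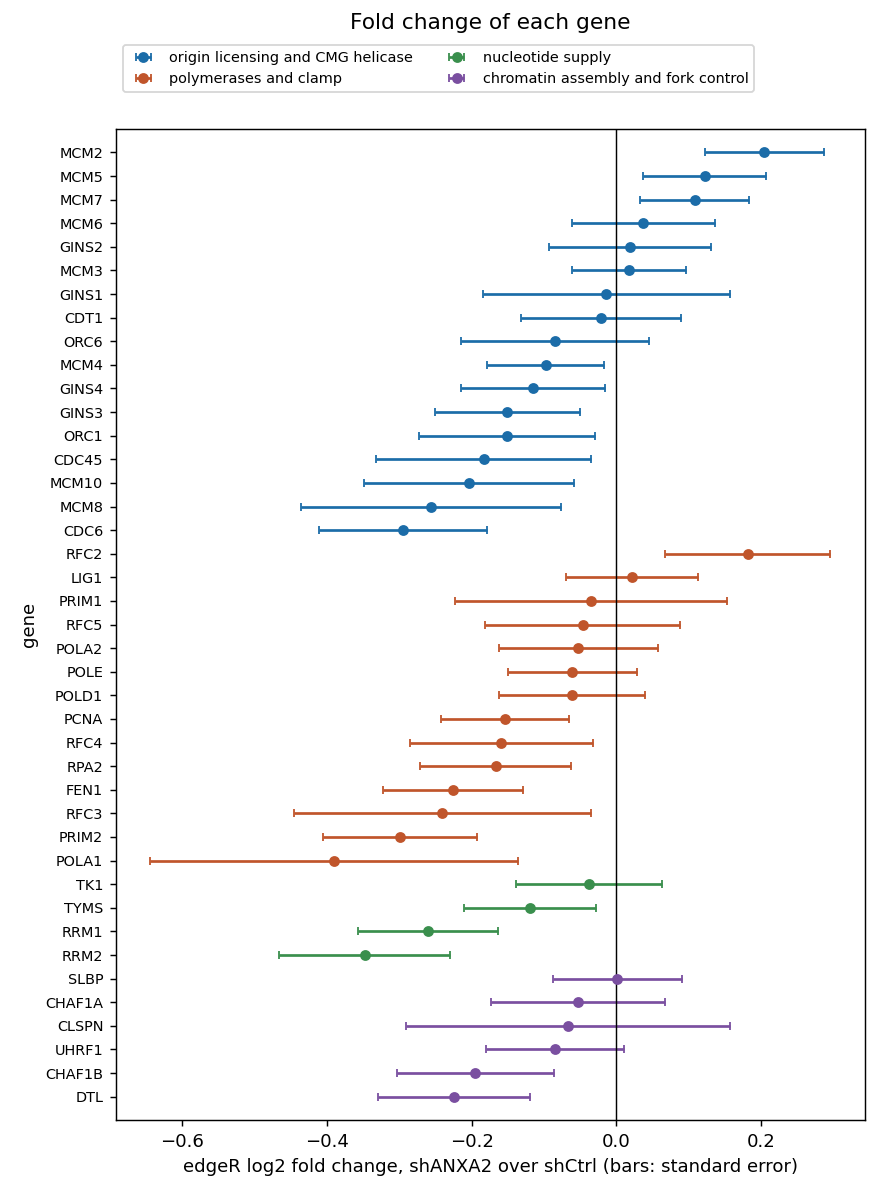
Log2 fold change of each of the 41 genes (points, coloured by class) with its standard error (bars), libraries labelled shANXA2 over libraries labelled shCtrl. Estimates run from -0.39 for POLA1 to 0.20 for MCM2, and 32 of 41 lie left of 0.

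The estimates moved with the base composition of the transcripts. Across the 15122 tested genes with a transcript in GENCODE release 44, the log2 fold change correlated with transcript GC content at Pearson r = 0.288 and Spearman rho = 0.389, and across the 41 replication genes at r = 0.542 and rho = 0.547. These correlations are across genes, which share the 6 libraries and are not independent replicates. Tested genes with 40% to 45% GC had a median of -0.111, and the 14 replication genes in that bin had a median of -0.214. Tested genes with 55% to 60% GC had a median of 0.089, and the 7 replication genes there had a median of 0.022. MCM2 (57.4% GC), MCM5 (56.3%) and MCM7 (55.8%) lay in the latter bin, and RRM2 (42.1%), RRM1 (42.6%) and PRIM2 (41.5%) in the former.

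An offset that removed the trend of each library on GC was therefore added after the data were seen. With it, 30 of the 41 estimates were below 0 and the median was -0.11 against 0 over all tested genes. The log2 fold change of MCM2 moved to 0.11, that of MCM7 to 0.03, that of RRM1 to -0.16, that of RRM2 to -0.23 and that of PRIM2 to -0.18, while FEN1 (52.2% GC) was at -0.27. Those of DTL, PCNA and MCM8 moved to -0.098, -0.063 and -0.13. Other estimates moved away from 0, among them POLD1 (-0.06 to -0.21), CDT1 (-0.02 to -0.16) and TK1 (-0.04 to -0.15). MCM6 moved from 0.04 to 0.13 and was then the highest of the ring subunits. FEN1 was then the 1 gene of the 41 with an unadjusted p under 0.05. The part of base composition in the single differences was not tested beyond this offset.

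**Figure D4:**
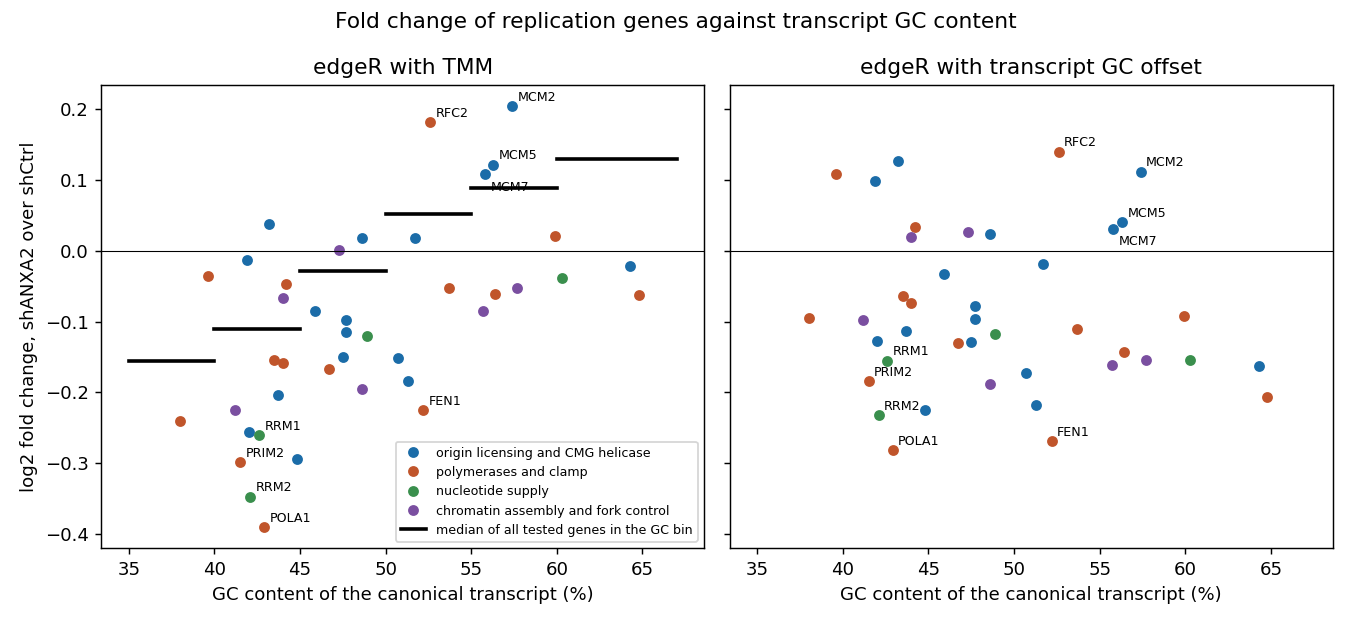
Log2 fold change of the 41 genes against the GC content (%) of their canonical transcripts, with TMM scaling (left) and with the GC offset (right), and black bars for the median of all tested genes per GC bin. On the left MCM2, MCM5 and MCM7 sit at 55.8% to 57.4% GC with estimates above 0 and RRM1, RRM2 and PRIM2 at 41.5% to 42.6% with estimates below 0, and on the right the same genes lie closer to 0.

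Other genes of the pathway were read from the same fit. Of 39 further replication genes, 30 had negative and 9 positive estimates with a median of -0.158, none passed an adjusted p of 0.05 in edgeR, 7 lower and 1 higher had an unadjusted p under 0.05, and 9 were separated in the direction of lower shANXA2 and 1 in the other. The strongest estimates were those of RRM2B, the p53-inducible subunit of ribonucleotide reductase, at 3.4 ± 0.728 CPM against 5.05 ± 0.29 CPM (SD, n = 3), and of DNA2, a nuclease and helicase of Okazaki fragments, at 8.22 ± 1.06 CPM against 11.9 ± 2.62 CPM (SD, n = 3). Their log2 fold changes were -0.57 and -0.53, each with an adjusted p of 0.605. Of 18 E2F factors and regulators of S-phase entry, 16 had negative estimates with a median of -0.171, none passed an adjusted p of 0.05 in edgeR and 1 had an unadjusted p under 0.05. CCNA2, cyclin A of S phase and G2, had 86.8, 83.8 and 80.7 CPM in the libraries labelled shCtrl and 55.5, 50.1 and 68.7 CPM in those labelled shANXA2, with a log2 fold change of -0.53 and an adjusted p of 0.599. E2F8, a repressive E2F factor, had a log2 fold change of -0.41 with overlapping groups.

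Side by side with the mitosis list, the replication genes had a median closer to 0. The 24 mitosis genes all had negative estimates with a median of -0.367, and none passed an adjusted p of 0.05 in edgeR. At an unadjusted p under 0.05 in the same test, 14 of the 24 were lower, against 4.32% of all tested genes. In the direction of lower shANXA2, 12 of the 24 were separated, against 8 of the 41 replication genes and 7.7% of all tested genes. The difference between the lists was not tested, and their median transcript GC contents were 42% for mitosis and 47.7% for replication. Within the replication genes, the 20 with an E2F match had a median of -0.064 and the 17 without one a median of -0.151. This difference was not tested. The genes with a match include the ring subunits MCM2, MCM3, MCM6 and MCM7, whose estimates were above 0. Only exact matches were searched, so a gene without one may hold a variant of the motif.

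**Figure D5:**
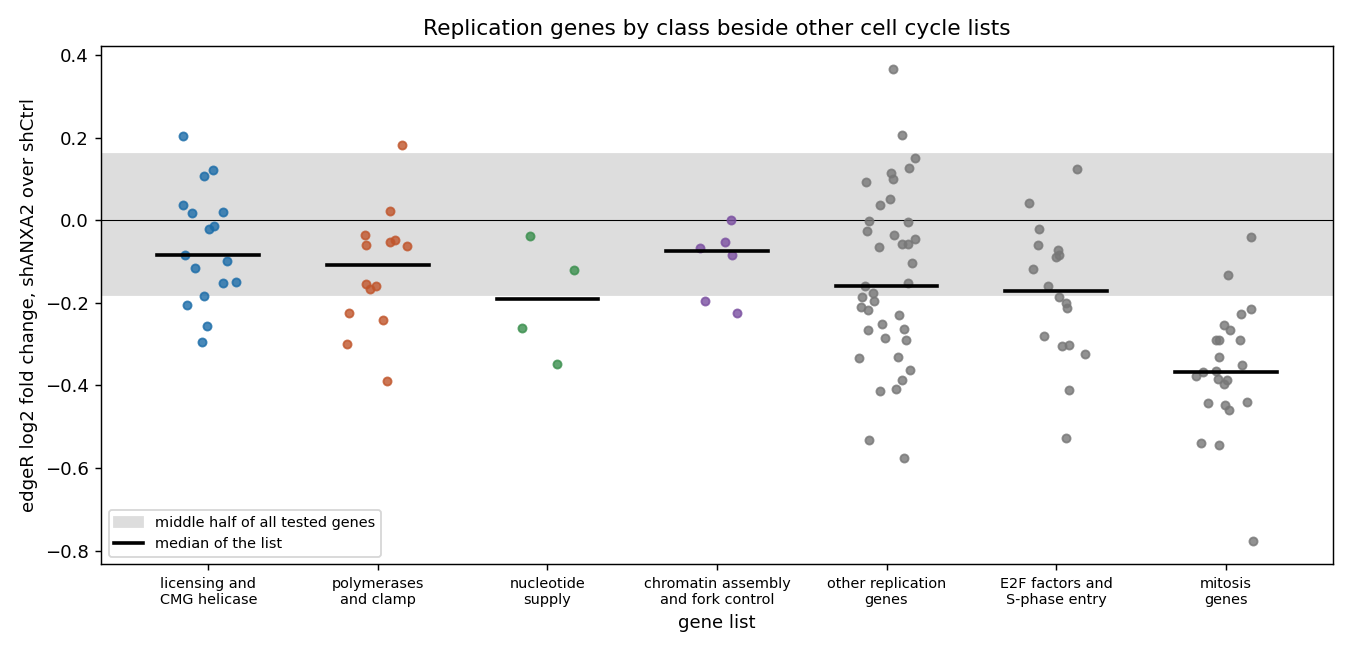
Log2 fold change of each gene (points) in the 4 classes of replication genes and in 3 further lists, with the median of each list (black bars) and the middle part of all tested genes between the lower and upper quartile (grey band, -0.182 to 0.161). The class medians lie between -0.19 (nucleotide supply) and -0.076 (chromatin assembly and fork control) and that of the mitosis genes at -0.367. The band is the spread of single genes and is no yardstick for a median.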

How the data were processed

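RNA-seq was analysed in 6 HK-2 libraries, 3 labelled shCtrl and 3 labelled shANXA2, grouped by their titles. The authors deposited raw read counts per gene, with no normalisation, and FPKM values rounded to 2 decimals. The submitters' processing notes name bcl2fastq, TopHat2, edgeR and GRCh38. Counting program, annotation and use of strand: not given in the sources used here. The deposited counts entered edgeR 4.0.16 and its quasi-likelihood F test (R 4.3.3, TMM scaling, low-count filter with a minimum count of 10 and a total of 15) on all 6 libraries without covariates, two-sided, with Benjamini-Hochberg adjustment over all 15299 tested genes and a threshold of 0.05. CPM are counts scaled to the TMM-adjusted total of the tested genes. Standard errors were derived from the F statistic, and 95% intervals from its degrees of freedom. FPKM served to compare levels between genes, for shares and levels of MCM and nucleotide supply genes by group (with no test), and in limma-trend. Coordinates, overlaps, GC and length came from GENCODE release 44 on GRCh38, which matched 97.1% of the identifiers.

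The genes and lists were chosen with earlier results of these data known. Some of the marker values are not reported here. Per library values are given for the genes separated between groups, those with unadjusted p under 0.05, and in each class the 2 largest absolute estimates and the highest FPKM, 16 genes in all, with other genes named where a class is described. Of the further lists that hold replication or entry genes, the 2 largest estimates were named. No replicate pair within a group agreed within sampling noise (chi-square per degree of freedom of 10.3 to 53.5), so each library counted as 1 sample. Code was tested on simulated data. Alternatives were RLE and library-size scaling, no filter, DESeq2 1.42.0, limma-trend 3.58.1 on log2(FPKM + 1) and log2(FPKM + 0.1), a replicate block, omission of each library, and a GC offset added after the data were seen.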

Additional observations from a re-analysis of the deposited data

How the results depend on the processing

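No replication gene passed an adjusted p of 0.05 under any of the 14 alternatives. The count over all genes was 0 in edgeR (1251 at an unadjusted p under 0.05), 165 without the low-count filter, 32 by DESeq2 and 0 to 4 when 1 library was left out (4 without shANXA2 replicate 2). The cause was not tested. Omission of single libraries moved the median of the 41 genes between -0.159 and -0.065, that of the licensing and helicase class between -0.108 and -0.023, of polymerases and clamp between -0.179 and -0.069, of nucleotide supply between -0.214 and -0.159, and of chromatin assembly and fork control between -0.146 and -0.05. Separated genes then numbered 8 (without shANXA2 replicate 2) to 19 (without shANXA2 replicate 3) in the lower and 2 to 4 in the higher direction. Fewer libraries make separation easier. With all 6 libraries, the 8 lower and 2 higher became 10 and 2 with library-size scaling, and 11 and 3 without the low-count filter. The share of all tested genes was not counted for these omissions and alternatives. The ANXA2 estimate spanned -0.113 to -0.0175. Of 224 values for the 16 named genes under alternatives, 218 kept their sign and 6 changed it, all of them SLBP. As none of these genes passed the threshold in any fit, only the sign was compared. A kept sign does not mean a kept size, since the MCM8 estimate of -0.26 became -0.0085 without shCtrl replicate 2. The SLBP estimate of 0.000975 became -0.0219 with library-size scaling, -0.0147 and -0.0149 in limma-trend, and -6.71e-05 with the replicate block. It spanned -0.0427 to 0.0377 when 1 library was left out.

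No pairing by replicate number was seen. Deviations of same-numbered libraries correlated at -0.135, 0.225 and -0.328, and those of differently numbered libraries at -0.397 to 0.385. Whether same-numbered libraries were handled together cannot be told from these values. The fit with the replicate block gave 0 genes past the threshold (1076 at an unadjusted p under 0.05) and a median of -0.09 for the 41 genes. With 3 libraries per group, the 95% intervals of single replication genes reached from -48.7% (POLA1) to 35.6% (RFC2).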

Other observations

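Several replication genes differed within the group labelled shANXA2 by more than between the groups (chosen after their values were seen). RFC3, a clamp loader subunit, had 33 CPM in replicate 3 against 20.7 and 18.6 CPM in replicates 1 and 2, with 26.2, 30.4 and 28.7 CPM in the libraries labelled shCtrl. PRIM1, the catalytic subunit of primase, had 36.7 against 23 and 24.3 CPM, and GINS1, of the GINS complex, had 69.1 against 46.3 and 43.8 CPM. In the opposite direction, POLA1 had 18.7 CPM in replicate 3 against 33.9 in both others, and CLSPN, the adaptor of the replication checkpoint, had 31.7 against 39.7 and 49.9 CPM. CLSPN also spanned 30 to 54.1 CPM in the libraries labelled shCtrl. The canonical transcripts of POLA1 and CLSPN have 5487 and 8512 bases, and those of PRIM1, RFC3 and GINS1 have 1423, 2306 and 3311 bases. Other members of like length differed less within this group. POLE (7823 bases) had 99.9 CPM in replicate 3 against 103 and 101 CPM, and MCM8 (7486 bases) 24.4 against 25.7 and 26.3 CPM. FEN1 (2016 bases) had 71.6 against 74.2 and 76.7 CPM. The part of transcript length in these differences was not tested.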
